A study of Mus musculus with 4 samples.

Results

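Myotube-only islands are stretches of 10 to 50 kb enriched for the histone variant macroH2A in myotubes that met no enriched stretch in myoblasts. They were chosen by width and by lack of overlap from the day 5 island list on chromosomes 1 to 19 except 15, at widths of 10 to 50 kb, wherever not even 1 bp overlapped an island of the day 0 list. An island is a series of enriched windows that the caller bridged where they lay close together, and each comes with its number of ChIP reads. The rule found 1261 islands among the 29473 of the day 5 list. They were 13.8% (exact 95% interval 13.1 to 14.6%) of the 9114 day 5 islands of those widths and chromosomes, and the remaining 7853 overlapped a day 0 island and are called shared below. The same rule turned around gave 969 myoblast-only islands, 11.6% of 8372, which serve as the mirror set.

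Both libraries came from C2C12, an established mouse line of muscle precursors with no genetic change named in the labels. The myoblast library was made at day 0 of differentiation medium and the myotube library at day 5, in horse serum on Matrigel-coated plates, in cells labelled as myotubes. Each was precipitated with the same macroH2A antibody, and the labels do not say which macroH2A isoform it binds. Of the 4 samples in the series, these 2 were used, and the 2 inputs were not. With 1 ChIP library per day there was no test of differentiation, and every difference is one between these 2 libraries. Intervals (95%) reflect counting error alone.

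MacroH2A replaces H2A in some nucleosomes and carries an extra folded domain, the macrodomain, joined to its histone part. It is known for covering broad domains, for its enrichment on the inactive X chromosome, and for both repressive and activating roles at genes. Its splice form macroH2A1.1 binds metabolites of ADP-ribose in its macrodomain, and its share is known to rise as muscle cells differentiate. Genes and sequences are not named, because no annotation or genome of the build of the lists (mm9) was used here.

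Myotube-only islands were narrower than shared myotube islands. The median width was 12.6 kb, with 5th and 95th percentiles of 10.2 and 21.6 kb and a maximum of 34.2 kb, against a median of 16.2 kb and a maximum of 49.8 kb for shared myotube islands. The mirror set of myoblast-only islands had the same median, 12.6 kb, and a 95th percentile of 21 kb. Day 5 islands of any width on these chromosomes had a median of 7.8 kb, below the lower limit of the rule. Together they covered 17.1 Mb, 5.77% of the day 5 covered length on these 18 autosomes, and held 5.16% of the island reads there. All day 5 islands without overlap, of any width, covered 57.0 Mb, so those of 10 to 50 kb made up 30.1% of that length. The share of islands without overlap fell with width, from 26.1% of 739 islands at 10.2 kb to 10.6% of 1854 at 15.6 to 19.8 kb and 1.43% of 699 at 30.0 to 39.6 kb. None of the 312 day 5 islands of 40.2 to 49.8 kb was myotube-only, which allows a share of up to 1.18% (exact upper bound). A wide island has more bases in which an overlap can occur, so part of this fall follows from the rule. Up to 15 kb the myotube share lay above the myoblast share in each width class, for example 17.1% (15.5 to 18.8%) against 12.99% (11.5 to 14.6%) at 12.6 to 15 kb. At 10.2 kb and from 15.6 kb on the intervals of the 2 days overlapped.

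The widest myotube-only island was chr16:50578801-50613000, 34.2 kb with 3160 reads, which lay 19.2 kb from the nearest day 0 island. Next came chr13:77061001-77094000 and chr1:45633001-45666000, both 33 kb, with 3010 and 2690 reads. Then followed chr14:73110601-73143000 and chr7:112635601-112668000, both 32.4 kb, with 3067 and 2683 reads. Their surroundings differed. The chromosome 14 island lay 2.4 kb from a day 0 island of 19.2 kb, whereas the chromosome 13 island had no day 0 island within 1.09 Mb. On the other chromosomes the widest member ran from 22.2 kb on chromosome 12 (chr12:37445401-37467600) to 31.8 kb on chromosomes 10 and 19 (chr10:48855001-48886800 and chr19:53793001-53824800).

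The rule's limits cut through a continuous range. At 10.2 kb, the narrowest width admitted on the 600 bp grid of the lists, 193 islands without overlap had a median of 73.6 reads per kb. At 9.6 kb, the next width below, 267 such islands had a median of 73.2. At the overlap limit, 20 members touched a day 0 island with 0 bp between them, at a median of 77.2 reads per kb, and 18 islands left out for an overlap of 0.6 kb had 73.2. Above 50 kb only 2 islands without overlap were left out on these chromosomes, chr17:30766201-30891600 at 125 kb and chr18:33230401-33285600 at 55.2 kb.

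Read density in myotube-only islands was lower than in shared myotube islands of the same width range. The median was 74.5 reads per kb (25th to 75th percentile 70.2 to 79.6) against 83.2 (76.3 to 91.7), a ratio of 0.896. Of the 1261 members, 1074 (85.2%) lay below the shared median, which by definition splits the shared islands evenly. The quartile ranges of the sets overlapped. The median member held 933 reads, which gives a single island a counting error of 3.27%. The difference was there at each width: in the 10.2 kb class the medians were 73.6 and 78.4, and at 20.4 to 29.4 kb they were 77.6 and 85.5. On single chromosomes the ratio of the medians ran from 0.874 on chromosome 17 to 0.945 on chromosome 16. Myoblast-only islands stood in a like relation to shared myoblast islands, with medians of 67.3 and 73.7 reads per kb and a ratio of 0.913. The rule used the same lists, so these ratios are a description.

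**Figure D1:**
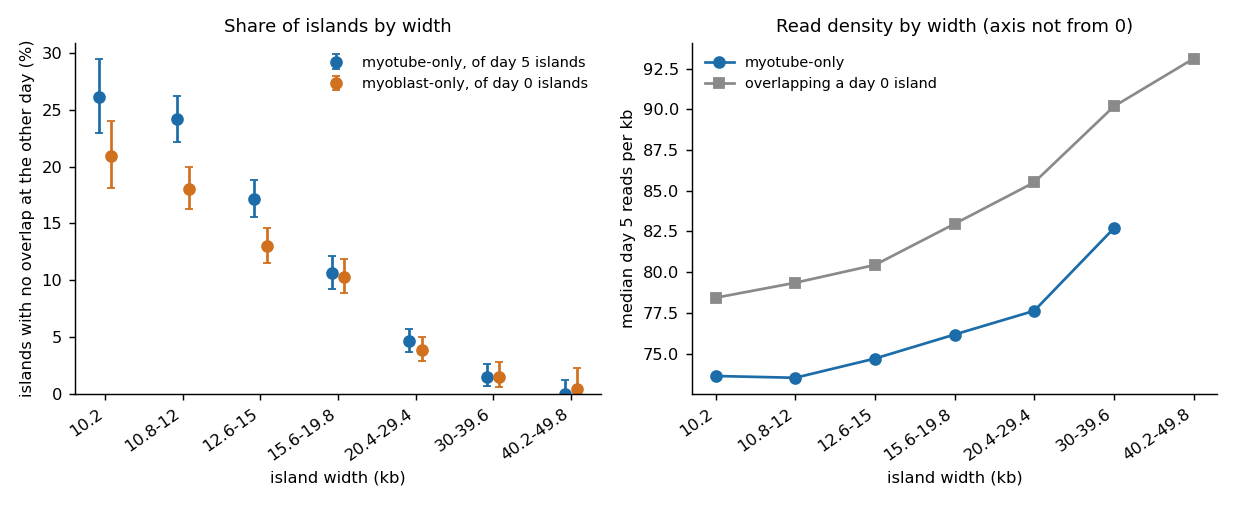
Left, the percentage of islands without overlap at the other day against island width in kb, with exact 95% intervals, for day 5 (blue) and day 0 (orange). Right, the median day 5 reads per kb of myotube-only islands (blue) and shared islands (grey) in the same width classes. The share falls from 26.1% to 0 at day 5, and the blue medians lie below the grey ones in all 6 classes that hold members.

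Densities of the 2 days need a scale to be set side by side. Across 303997 windows of 600 bp covered at both days, the median ratio of day 5 to day 0 density was 1.14. Divided by it, the median member had 65.5 reads per kb, a level below which 14.0% of the day 0 islands of 10 to 50 kb lay. The least dense day 0 island of those widths had 52.7 reads per kb, and 1256 of the 1261 members exceeded it after rescaling. The typical member was thus in the low part of the listed range at day 5, and above the day 0 lower limit. The day 0 lists give no read count outside islands, so the day 0 density at the members is not known, and lack of an island at day 0 says nothing firm about lack of macroH2A.

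The excess of myotube-only over myoblast-only islands depended on how the lists were matched. As deposited, the numbers were 1261 and 969, a ratio of 1.30 (1.20 to 1.42). When islands under 70 reads per kb at day 0 and under the rescaled floor of 79.6 at day 5 were left out, 962 and 1314 remained, a ratio of 0.732. When the least dense day 5 islands were left out until both lists covered the same length, the numbers were 1005 and 1191, a ratio of 0.844. Leaving out day 5 islands alone can lower but not raise the first number, and raise but not lower the second. A fall in this ratio therefore follows from the procedure. When the least dense 25% of islands were left out of each list, the numbers were 1256 and 1019, a ratio of 1.23. The direction of the total thus held in this setting, and reversed with the rescaled floor and with equal covered length. Both of the latter were chosen after seeing the data.

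Chromosomes differed in the balance of myotube-only and myoblast-only islands. Chromosome 6 held 104 myotube-only and 20 myoblast-only islands, a ratio of 5.20 (3.20 to 8.86). Chromosome 13 held 107 and 37, a ratio of 2.89 (1.97 to 4.32), and chromosome 19 held 52 and 23. Chromosome 4 went the other way with 49 and 92, a ratio of 0.533 (0.369 to 0.761), and chromosome 8 had 48 and 74. In all, 11 of the 18 autosomes had more myotube-only islands, 6 had fewer, and chromosome 16 had 41 of each. These ratios moved with the scaled floor to 2.06 on chromosome 6, 1.13 on chromosome 13, 0.402 on chromosome 4 and 0.604 on chromosome 8. Under both ways of matching the lists, chromosome 6 stayed above 1 and chromosomes 4 and 8 below 1. With equal covered length these ratios could only fall, so that setting was no check for chromosomes 4 and 8. Without the least dense 25% of islands in each list, chromosome 8 reversed to 1.02. On all 11 autosomes with more myotube-only islands, the covered span was also larger at day 5. On chromosomes 4 and 8, which had fewer, it was smaller at day 5. Day 0 islands covered 8.95% of chromosome 6, 15.5% of chromosome 13, 15.3% of chromosome 19, 11.1% of chromosome 4 and 12.7% of chromosome 8. Day 5 islands covered 11.8, 18.4, 18.1, 10.1 and 12.3% of them. The covered span went against the balance on chromosomes 3, 5, 12 and 18. They had fewer myotube-only than myoblast-only islands although their covered span was larger at day 5 (12.2 and 12.4%, 8.51 and 8.76%, 8.34 and 8.70%, and 10.6 and 10.9%). The members are themselves part of the covered length.

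**Figure D2:**
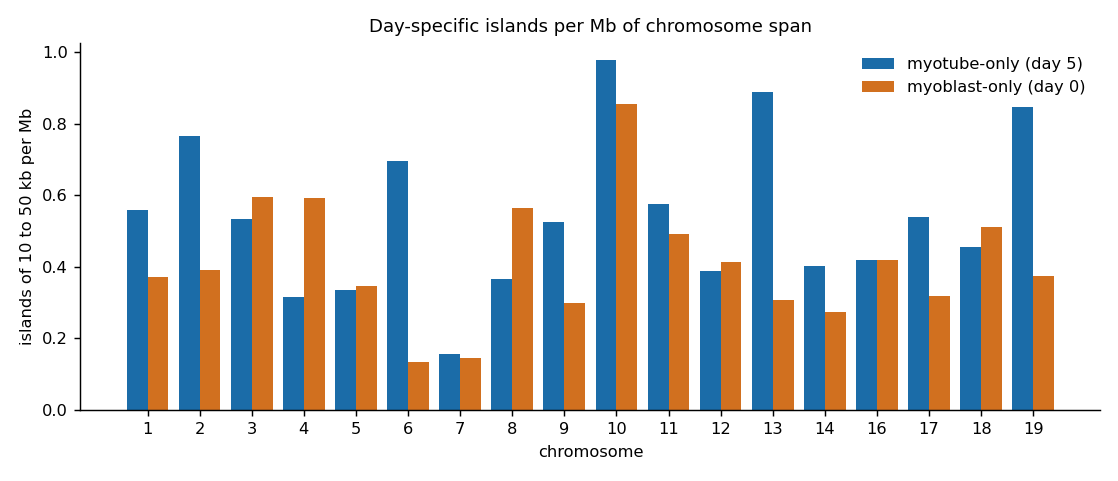
Islands of 10 to 50 kb per Mb of chromosome span (ending at the last island of the 2 lists) that were myotube-only (blue) or myoblast-only (orange), 1 library per day and no error bars. Chromosome 6 shows 0.696 against 0.134 per Mb and chromosome 4 shows 0.316 against 0.593.

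Counted per Mb, myotube-only islands were most frequent on chromosome 10 (0.978 per Mb), chromosome 13 (0.890) and chromosome 19 (0.848), and least frequent on chromosome 7 (0.157). Taken as a share of the day 5 islands of the same widths the order was another one. Chromosome 9 had the highest share, 65 of 286 (22.7%, 18 to 28%), followed by chromosome 6 with 19.3% and chromosome 7 with 18.5%, while densely covered chromosome 11 had the lowest, 70 of 755 (9.27%, 7.30 to 11.6%). The intervals of chromosomes 9 and 11 do not overlap, but these chromosomes were picked as the extremes of the 18 autosomes. Those of chromosomes 9, 6 and 7 do overlap. With each chromosome's span cut into 3 equal parts and the 18 autosomes pooled, 31.9% of members lay in the part nearest the centromere, 34.7% in the middle part and 33.4% in the distal part. For shared myotube islands the pooled values were 26.5, 35.4 and 38.1%. Single chromosomes were not compared in this way.

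Most myotube-only islands lay near islands of the myoblast list. The median distance between nearest edges was 15.6 kb, with quartiles of 5.4 and 45.6 kb. Of the 1261, 302 (23.9%) lay within 5 kb of a day 0 island, 487 (38.6%) at 5 to 25 kb, 323 (25.6%) at 25 to 100 kb and 149 (11.8%, 10.1 to 13.7%) farther away. Myoblast-only islands lay slightly nearer to day 5 islands, at a median of 13.2 kb, with 78 of 969 (8.05%, 6.41 to 9.94%) beyond 100 kb. Distance did not sort the members by strength. The median was 74.9 reads per kb within 5 kb of a day 0 island, 74.4 at 5 to 25 kb, 73.8 at 25 to 100 kb and 74.9 beyond, so that remote islands were as dense as adjacent ones.

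Per Mb of sequence without day 0 islands, myotube-only islands became rarer with distance. Measured from the island's midpoint, there were 2.30 per Mb (2.09 to 2.53) at 5 to 15 kb from a day 0 island, 1.15 at 25 to 50 kb, 0.297 at 100 to 250 kb and 0.0425 (0.0212 to 0.0761) beyond 1000 kb. The mirror set fell in the same manner, from 1.92 to 0.0046 per Mb. At 250 to 1000 kb the rates were 0.108 (0.0800 to 0.142) for myotube-only and 0.0424 (0.0259 to 0.0655) for myoblast-only islands, and these intervals do not overlap. Nor did the intervals at 15 to 25, 50 to 100 and 100 to 250 kb, while those of the other classes, including beyond 1000 kb, overlapped. These rates are for both lists as deposited. Longer gaps between day 0 islands held a member more often, but not in proportion to their length. Of the 4639 gaps of 10.2 to 25 kb, 1.77% held a member, against 10.7% of the 2076 gaps of 50 to 100 kb and 23.9% of the 335 gaps of at least 1 Mb. In members per Mb of gap, the rate was 1.12 at 10.2 to 25 kb, highest at 25 to 50 kb (2.17), then 1.73 at 50 to 100 kb, and lowest in gaps of at least 1 Mb (0.139).

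**Figure D3:**
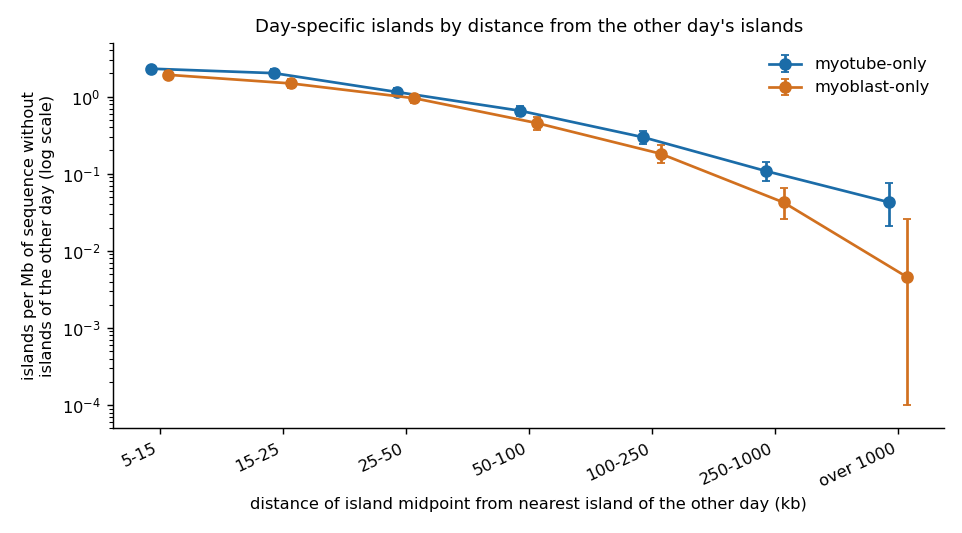
Day-specific islands per Mb of sequence free of islands of the other day (log scale) against the distance of the island's midpoint from the nearest such island in kb, with exact Poisson 95% intervals. Both sets decline across all 7 distance classes, and the myotube-only rate (blue) falls from 2.30 to 0.0425 per Mb.

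Few members filled the gap they lay in. The day 0 gap around a member had a median length of 127.8 kb, of which the member filled a median of 10.7%. Only 97 of the 1257 members with day 0 islands on both sides (7.72%) filled over 50% of their gap. The fullest was chr2:9638401-9648600 (chosen after its value was seen), which touched one myoblast island, ended 0.6 kb before the next, and so filled 94.4% of a gap of 10.8 kb. Day 0 islands within 25 kb on both sides were found for 253 members (20.1%). Of the 20 members that touched a day 0 island, the 5 with most reads are named. chr10:56322001-56338200, chr16:76463401-76483800, chr2:69273001-69291000 and chr3:42382201-42398400 each touched a day 0 island that was still listed at day 5. chr8:42954001-42970200 touched one of 5.4 kb that was not.

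Some members stood in wide regions empty at day 0. In 12 cases on 10 chromosomes no myoblast island lay within 1 Mb. Leaving aside the chromosome 9 island described below, the most remote was chr1:112369201-112382400, with 1024 reads at 77.6 reads per kb and 2.22 Mb to the nearest day 0 island. It was also isolated at day 5, its nearest neighbour being 2.22 Mb away. The pair chr7:58873201-58886400 and chr7:59074801-59089200 shared a day 0 gap of 8.47 Mb and had 81.7 and 78.3 reads per kb. On chromosome 11, chr11:38306401-38329200 and chr11:38107201-38124000 (the latter named after its value was seen) shared a gap of 3.69 Mb, with 73.4 and 89.2 reads per kb. These 4 islands had other day 5 islands 11.4 to 81.6 kb away. All 12 lay between 68.2 and 492.6 reads per kb, with a median of 78.0. The mirror set had 1 island more than 1 Mb from the other list, with both lists as deposited.

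The myoblast island nearest to each member was followed to day 5. For 950 members (75.3%, 72.9 to 77.7%) the nearest day 0 island overlapped a day 5 island, where 72.3% of all day 0 islands on these chromosomes did. That share was 75.5% for members within 5 kb and 71.8% for those beyond 100 kb. For the other 311 members the nearest day 0 island was listed at day 0 alone. The nearest day 0 islands had a median width of 6 kb. In the mirror set the nearest day 5 island overlapped a day 0 island in 75.9% of cases, so the share is not read as particular to the members.

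Around myotube-only islands the rest of the myotube list was fuller than the myoblast list. In the 100 kb on each side, islands covered 15.997% at day 0 and 26.7% at day 5 on average, the member itself not counted, a ratio of 1.67. Covered length in these flanks was greater at day 5 for 1010 members (80.1%), greater at day 0 for 222 (17.6%) and equal for 29. Around shared myotube islands the averages were 37.9 and 39.7%, a ratio of 1.05, with more at day 5 for 56.5%. Around myoblast-only islands the averages went from 30.9% at day 0 to 19.6% at day 5, with more at day 0 for 75.7%. In the first 5 kb beside a member, day 5 islands covered 13.6% and day 0 islands 6.6%. At 5 to 10 kb the values were 30.6 and 14.9%, and at 95 to 100 kb they were 24.9 and 16.9%. The flanks were not used to choose members, but they come from the same 2 libraries, and close to a member the rule limits what day 0 islands can cover. With the scaled floor the ratio in the flanks was 1.58, and with equal covered length it was 1.64.

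**Figure D4:**
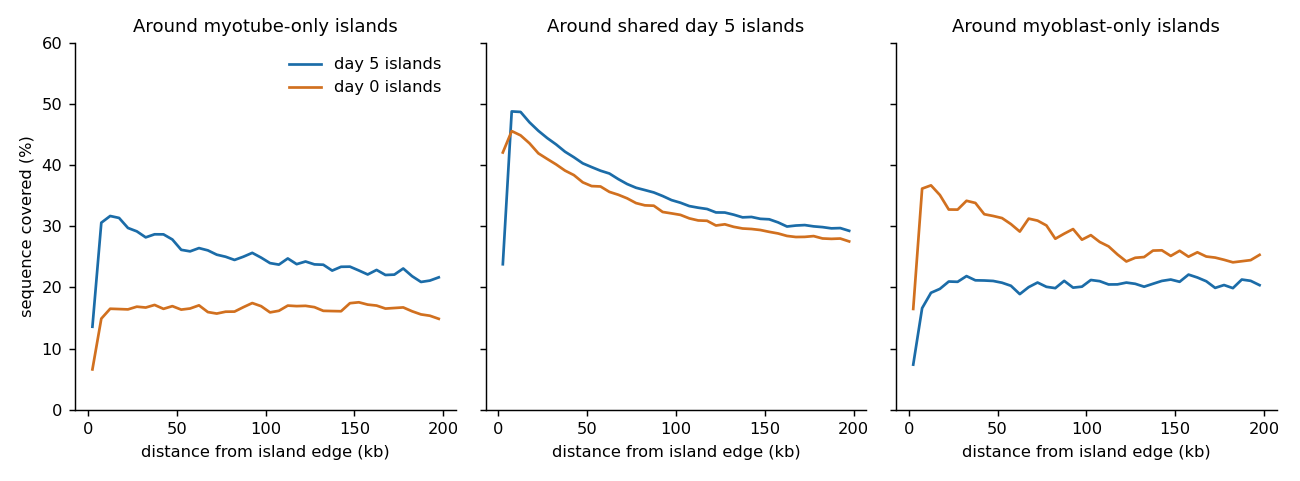
Percentage of sequence covered by day 5 islands (blue) and day 0 islands (orange) in steps of 5 kb from the island's edge out to 200 kb, both sides averaged, around myotube-only, shared day 5 and myoblast-only islands of 10 to 50 kb. Blue lies above orange at every distance around myotube-only islands, below it around myoblast-only islands, and slightly above it around shared ones beyond the first 5 kb.

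Neighbours within the myotube list tended to be myotube-only as well. The nearest other day 5 island of any width lay at a median of 5.4 kb, and for 1042 members (82.6%) it lay within 25 kb. In 565 cases (44.8%, 42.0 to 47.6%) that neighbour overlapped a day 0 island, compared with 68.5% of all day 5 islands on these chromosomes and 81.0% of the nearest neighbours of shared islands. The myoblast-only set had nearly the same value, 44.6%. In myotubes and in myoblasts, then, day-specific islands lay beside other day-specific islands in a larger share of cases than such islands had in the list. Each member lies by rule in a stretch without day 0 islands, of median length 127.8 kb. A neighbour at a few kb can lie in the same stretch, so part of this share follows from the rule. The same holds for the mirror set. No test of this was made.

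Members joined by at most 100 kb formed 194 clusters with 468 islands (37.1%), and 793 stood alone. There were 140 pairs, 39 triplets, 7 clusters of 4, 6 of 5, 1 of 6 and 1 of 7. The mirror set was clustered to a like degree, with 388 of 969 islands (40.0%) in 152 clusters and 7 in the largest. Shared myotube islands, which are far more numerous, were in clusters for 86.1% (6761 of 7853), with 33 in the largest. Clustered members had a median of 75.8 reads per kb and single ones 73.8. In 97 of the 194 clusters no day 0 island lay between the first and the last member. The percentage in clusters was 26.4 with a limit of 50 kb and 49.1 with one of 200 kb.

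The largest cluster lay on chromosome 13 from 109643401 to 109927800, a stretch of 284 kb with 7 members. From its start they were 16.2, 10.8, 10.8, 12.6, 16.2, 15.6 and 13.2 kb wide and had 80.9, 77.9, 75, 75.2, 79.01, 71.03 and 80 reads per kb. The densities ran on both sides of the median of all members (74.5), and the counting intervals of the least dense (66.9 to 75.3) and the densest (76.6 to 85.4) did not overlap. Nothing is concluded from this, as both were picked as the extremes of the 7 members. Among them lay 5 myoblast islands totalling 30 kb, each overlapping a day 5 island, and day 5 islands covered 182.4 kb of the stretch. The 1 Mb window that holds it, from 109 to 110 Mb, had 9 members, the most of any of the 2374 windows, 760 of which had at least 1 (window chosen after its value was seen). Beside the members, day 0 islands of 7.2, 3.6, 4.2 and 10.2 kb lay inside myotube islands of 14.4, 25.2, 7.2 and 13.2 kb. The one of 3.6 kb was at chr13:109738201-109741800. The remaining day 0 island, of 4.8 kb, overlapped in part a myotube island of the same width.

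The second cluster, chr1:40879201-41070000, had 6 members in 191 kb, and its only myoblast island was one of 3.0 kb at chr1:40900801-40903800. That island was listed with the same start and end in myotubes, at 88.3 reads per kb at day 0 and 119.7 at day 5. These densities are not rescaled by the median ratio of day 5 to day 0 density, 1.14. Covered length in the stretch went from 3.0 to 110.4 kb. The members, which have no day 0 overlap by rule, make up 76.2 kb of the latter, so much of this difference follows from the choice of the stretch. The 6 members had 86.0, 76.5, 74.0, 71.2, 75.5 and 71.6 reads per kb, and 6 day 5 islands under 10 kb lay between them, 5 of which also had no day 0 counterpart.

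Of the 6 clusters with 5 members, the 3 with most reads are described. Here too, part of the difference in covered length follows from choosing stretches by their members. chr10:11802001-11945400 went from 12 to 115.8 kb covered within 143 kb, of which members made up 75.6 kb. It held the member chr10:11856001-11877600 of 21.6 kb at 94.8 reads per kb. chr12:119891401-120021000 went from 11.4 to 105.6 kb within 130 kb, and its 4 last members followed each other at distances of 1.8 to 6.0 kb. chr14:37125001-37225200 had no myoblast island in its 100 kb and 65.4 kb covered at day 5. Its last member, chr14:37214401-37225200, had 103.1 reads per kb.

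**Figure D5:**
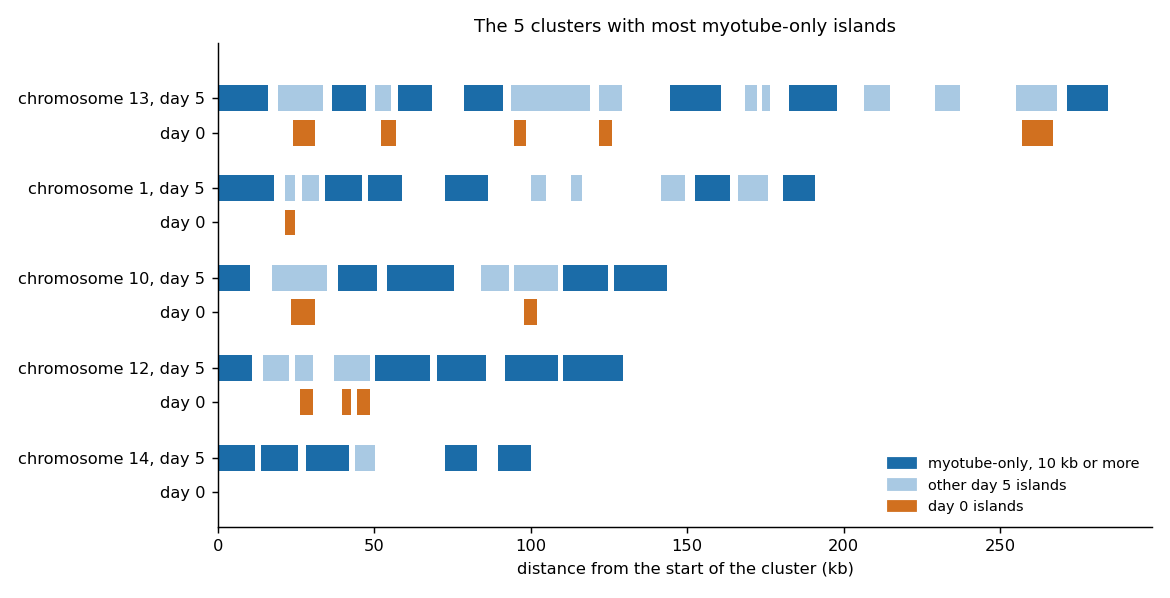
Islands of both lists in the 5 clusters with the most members (of the 6 clusters with 5 members, the 3 with most reads), drawn to scale as distance in kb from the start of each cluster, with members in dark blue, other day 5 islands in light blue and day 0 islands in orange. The chromosome 13 cluster holds 7 members among 5 myoblast islands, and the chromosome 14 cluster has an empty day 0 row.

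Few myotube-only islands had a high read density. Only 9 of 1261 (0.714%) exceeded 100 reads per kb, against 11.1% of shared myotube islands, and 2 exceeded 120. The sets were not matched for width here, and shared islands were wider (median 16.2 against 12.6 kb). The mirror set was also low at the top, with a 95th percentile of 78.2 reads per kb against 91.4 for shared myoblast islands. Over the whole lists, 5 day 5 islands and 0 day 0 islands exceeded 400 reads per kb. One member stood far apart. chr9:3015001-3038400, 23.4 kb wide at the beginning of the assembled sequence beside the centromere, held 11527 reads at 492.6 reads per kb (483.7 to 501.7). That was 6.61 times the median member, no day 0 island lay within 3.27 Mb, and another day 5 island without a day 0 counterpart, 8.4 kb wide, lay 7.2 kb away. Input reads were not analysed here, so the amount of DNA and of macroH2A at this place cannot be told apart. The next was chr13:23492401-23505000 with 1785 reads at 141.7 reads per kb (135.2 to 148.4), 34.2 kb from a myoblast island on one side and 1.37 Mb from one on the other. It was followed by chr19:53827201-53838600 at 115.2, chr13:6889801-6904200 at 113.1 and chr14:49286401-49312800 at 106.4 reads per kb. The chromosome 19 island lay 2.4 kb from that chromosome's widest member, chr19:53793001-53824800, which had 81.04 reads per kb, above the 75th percentile of members (79.6). The interval of the chromosome 9 island does not meet that of the next, nor does that of chr13:23492401-23505000 meet those below it.

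At the other end, the 5 least dense members had 58.4 to 59.9 reads per kb. They were chr18:65410801-65421000 with 596 reads, chr10:69277801-69290400 with 750, chr14:65757601-65768400 with 645, chr12:75261601-75276000 with 862 and chr7:72763201-72774000 with 647. Their intervals overlapped each other, the lowest being 53.8 to 63.3 and the highest 55.4 to 64.7 reads per kb. All 5 lay within 32.4 kb of a myoblast island, and the nearest such island was retained at day 5 in 3 of the 5.

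Members were more frequent in windows with more myoblast coverage, up to a point. Of the 550 windows of 1 Mb without any myoblast island, 28 (5.09%) held a member, 36 members in all. The percentage of windows with a member was 22.6 where day 0 islands covered up to 25 kb, 43.1 at 25 to 100 kb, 46.2 at 100 to 200 kb and 46.6 at 200 to 400 kb. Where day 0 islands covered more than 400 kb it was 33.8. Per Mb left free by day 0 islands, members numbered 0.0655 in windows with none, 0.351 at up to 25 kb, 0.804 at 25 to 100 kb, 1.12 at 200 to 400 kb and 0.875 above 400 kb. The 4 windows with 7 members were those at 134 to 135 Mb of chromosome 2, 15 to 16 Mb of chromosome 10, 37 to 38 Mb of chromosome 14 and 31 to 32 Mb of chromosome 19, and were chosen after their values were seen. In the chromosome 19 window covered length went from 31.2 kb to 272.6 kb, and in the chromosome 14 window from 235.2 kb to 333.6 kb. The windows were chosen by their members, so part of each difference follows from that choice.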

How the data were processed

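MacroH2A ChIP-seq islands of C2C12 cells were analysed, 1 library at day 0 and 1 at day 5. Each deposited list holds positions and a raw read count per island. Per the submitters' processing notes, CASAVA (1.4), Bowtie2 (2.2.6), SICER (1.1), MACS (1.4.2) and the build mm9 (NCBIM37) were used, in roles not given. The lists' names state 600 bp windows, 1200 bp gaps and an FDR of 0.01. Use of input in calling and treatment of duplicates are not given in the sources used here, and rows may be missing.

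Positions count from 1. The islands held 24365482 reads (day 0) and 29619426 reads (day 5), not the sequencing depth. Overlap, distance between edges, covered length and clusters (members at most 100 kb apart) were computed with Python 3.11.15, NumPy 2.4.6, pandas 2.3.3 and SciPy 1.17.1, and drawn with matplotlib 3.10.9. The code was tested on simulated data, with 0 mismatches. Intervals are exact (Clopper-Pearson or Poisson), and no test was made. Islands named are the 5 widest, with most reads, densest, least dense, farthest from and nearest to a day 0 island, the 5 clusters with most members and each chromosome's widest member, with ties settled by reads. The members and lists were chosen with earlier results of these data known. The annotation at hand was of GRCm38, so genes and sequences were not used. Alternatives covered overlap, width, threshold, merging, chaining distance, matched density or coverage, and chromosomes left out.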

Additional observations from a re-analysis of the deposited data

How the results depend on the processing

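The scaled floor, equal covered length, the limit of 400 reads per kb and leaving out chromosomes 6 and 13 were chosen after seeing the data. Of 65 values recomputed for the main results, 42 stayed within their tolerance (an exact interval, or 1.5 times for numbers and for the ratio in the flanks), 21 moved and 2 reversed. The number of myotube-only over myoblast-only islands reversed to 0.732 with the scaled floor and 0.844 with equal covered length, and moved to 1.15 without chromosomes 6 and 13. On chromosome 8 that ratio reversed to 1.02 without the least dense 25%. Some moves follow from how the alternative is built. So does the direction of the reversal with equal covered length, where only day 5 islands were left out. Requiring members to have no day 0 island within 5 kb gave 10.5% of day 5 islands myotube-only, a median distance of 24.6 kb and 32.6% in clusters. A minimum width of 15 kb gave 332 islands, 6.80% and 16.9% in clusters, and chaining over 50 and 200 kb gave 26.4% and 49.1%. Merging islands within 5 kb gave 16.8%, a density ratio of 0.941, 24 kb and 32.5% in clusters. Without the least dense 25%, 17.7% were myotube-only and the density ratio was 0.926. With the scaled floor these were 18.3% and 0.940, with 18.6 kb and 32.7% in clusters, and with equal covered length 11.8% and 0.915; the cause was not tested. The ratio of covered length in the flanks stayed within its tolerance in all 9 settings tried for it. No paired analysis was possible because each day has 1 library and no result comes from a test. Variation between cultures was not measured, and reads outside islands limit any statement on weak signal at day 0.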
